A study of Mus musculus with 10 samples.

Results

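The complement genes described here encode the components, regulators and receptors of the complement system, and were taken from a list of 34 genes chosen by function. Of these, 31 had a transcript cluster, the array's unit of measurement, that the platform annotation assigned to 1 gene symbol, among 22180 such genes in all. Masp2 shared its cluster with another symbol, C3 and Cfd were not listed in the annotation, and these 3 genes were not analysed here. The arrays compared 3 samples of mouse hepatocyte-like cells (HLCs, differentiated from embryonic stem cells), 3 of hepatocytes from adult liver and 4 of undifferentiated embryonic stem cells (ESCs). By its strain label every sample, the ESCs included, carries Tg(CAG-luc, GFP)L2G85Chco (C.FVB background, FathJ), with luciferase and green fluorescent protein transgenes under the broadly active CAG promoter, and a label of under passage 20, the adult hepatocytes included. The age of the animals and the agents and duration of differentiation were not stated in the labels. Nothing in the labels ties the numbered biological replicates to separate animals or cultures, so the p-values speak only to the spread among these arrays, which may be technical in part.

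Complement is a cascade of plasma proteases and adaptor proteins that coats targets for uptake by phagocytes, releases peptides that attract leukocytes and builds a pore in the target membrane. The classical route starts when C1q binds antibody or other ligands, the lectin route when mannose-binding lectins or ficolins bind sugars, and the alternative route runs on spontaneous turnover of C3. All routes meet at C3 and end in the terminal components. Hepatocytes are the main source of most circulating components in the adult, whereas C1q and properdin come largely from myeloid cells, and most nucleated cells carry membrane proteins that protect them from the cascade.

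The levels are log2 values made by the authors, between 1.27 and 13.58 over the whole table, with array medians of 4.91 to 5.07. A group mean under 5.5 is called low here; it was low for 48.8% of all genes in HLCs, 50.1% in adult hepatocytes and 50.5% in ESCs. A gene was called, and is said to have risen or fallen, where its adjusted p was under 0.05 and its log2 difference reached 1 in size. Of 10 hepatocyte markers, 2 rose and 0 fell in HLCs relative to ESCs (limma, lowest to highest difference -1.25 to 3.10), and their mean log2 level was 5.44, 5.72 and 7.04 in HLC replicates 1, 2 and 3, against 12.52 to 12.59 in adult hepatocytes and 5.26 to 5.42 in ESCs. By this mean HLC replicate 3 was the highest HLC array, but single markers differed. Alb was at 4.85, 5.14 and 10.80 in HLC replicates 1, 2 and 3. Ttr (9.04, 10.44 and 8.77) and Apoa1 (6.95, 7.97 and 6.80) were lowest in replicate 3. HLC replicate 3 was also the highest HLC array by the mean of the pluripotency markers. That mean was 5.14, 5.02 and 5.78 in HLC replicates 1, 2 and 3, against 4.79 to 4.98 in adult hepatocytes and 9.26 to 9.32 in ESCs. Pearson's r over all clusters was at least 0.960 between arrays of 1 kind.

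Adult hepatocytes differed from ESCs in most complement genes, and HLCs in few. In adult hepatocytes 26 of 31 genes rose and 0 fell relative to ESCs, where 11.0% of all genes rose and 15.6% fell (limma, with 27 higher and 0 lower at an unadjusted p under 0.05). In HLCs 4 of 31 rose and 0 fell relative to ESCs, where 8.61% of all genes rose and 7.35% fell (limma, with 8 higher and 3 lower at an unadjusted p under 0.05). Those 4 were the lectin pathway protease Masp1, the regulators Clu and Serping1, and the receptor C3ar1. The share of 4 in 31 lies near the background, so the count by itself is no result about complement. Between HLCs and adult hepatocytes directly, 23 of 31 genes were lower in HLCs and 1, Cd55, was higher, where 9.12% of all genes were lower and 13.9% higher. The median log2 difference of the 31 genes was 0.11 for HLCs against ESCs, where that of all genes was -0.01. It was 3.90 for adult hepatocytes against ESCs (all genes, 0.05) and -2.13 for HLCs against adult hepatocytes (all genes, -0.04). The comparisons share samples, so their values are set side by side only. In bulk RNA, fewer cells that express a gene and less of its RNA per cell cannot be told apart.

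**Figure D1:**
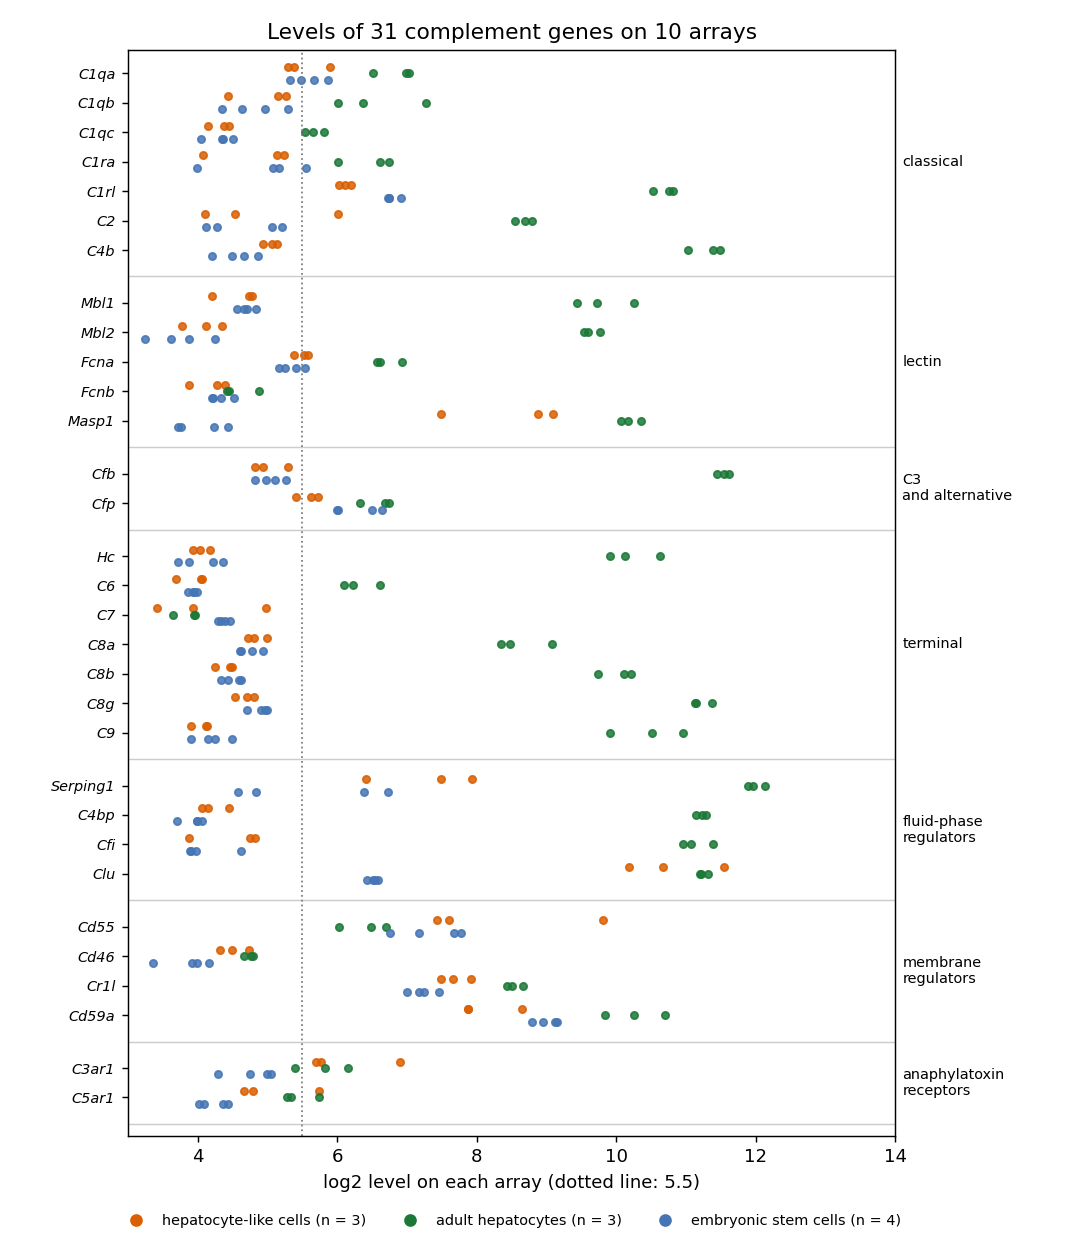
The log2 level (x axis) of each of the 31 measured complement genes (y axis, grouped by role) is plotted for every array, with HLCs, adult hepatocytes and ESCs in separate colours and a dotted line at 5.5. Most secreted components are far to the right in adult hepatocytes only, while Masp1 and Clu are also to the right in HLCs, at 7.49 to 9.09 and 10.19 to 11.54.

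Promoter windows are shown for 4 genes, 3 that rose in adult hepatocytes relative to ESCs (C4bp, Hc and C8b) and 1 that was not called (C7). All 4 are among the genes with the match described below. RefSeq windows of 300 bases on GRCm38.p6, 250 before and 50 after the annotated start, were given for 23 of the 31 genes. The core of the binding site of HNF1, a hepatocyte transcription factor, was searched for as GTTAAT on both strands. It was present for 8 of the 23 genes (C1ra, C4bp, C7, C8a, C8b, Cd55, Cfp and Hc), and in 7.10% of all 32851 windows. Here and for the motifs below, members are counted by gene and the background by window, so the units differ. The windows of C4bp (chr1:130661569-130661868, minus strand), Hc (chr2:35061363-35061662, minus strand), C8b (chr4:104766067-104766366, plus strand) and C7 (chr15:5063724-5064023, minus strand) follow, 5′ to 3′ along the gene, with the match in capitals; it reads ATTAAC where it lies on the opposite strand of the gene.
C4bp: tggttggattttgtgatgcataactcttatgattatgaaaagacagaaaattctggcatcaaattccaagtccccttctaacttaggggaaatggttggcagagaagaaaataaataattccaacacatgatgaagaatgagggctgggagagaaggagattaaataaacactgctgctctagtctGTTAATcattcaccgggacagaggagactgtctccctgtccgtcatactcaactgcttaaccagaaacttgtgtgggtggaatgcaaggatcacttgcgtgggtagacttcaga
Hc: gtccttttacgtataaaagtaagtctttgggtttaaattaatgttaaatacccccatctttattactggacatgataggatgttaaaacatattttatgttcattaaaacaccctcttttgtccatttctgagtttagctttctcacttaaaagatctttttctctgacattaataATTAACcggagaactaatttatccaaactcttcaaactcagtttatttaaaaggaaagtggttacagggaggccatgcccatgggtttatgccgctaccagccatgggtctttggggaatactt
C8b: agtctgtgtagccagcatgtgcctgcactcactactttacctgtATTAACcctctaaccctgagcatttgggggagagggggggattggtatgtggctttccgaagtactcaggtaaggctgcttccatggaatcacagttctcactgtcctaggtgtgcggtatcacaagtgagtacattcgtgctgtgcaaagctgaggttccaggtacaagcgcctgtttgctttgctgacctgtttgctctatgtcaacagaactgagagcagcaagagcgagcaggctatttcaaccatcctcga
C7: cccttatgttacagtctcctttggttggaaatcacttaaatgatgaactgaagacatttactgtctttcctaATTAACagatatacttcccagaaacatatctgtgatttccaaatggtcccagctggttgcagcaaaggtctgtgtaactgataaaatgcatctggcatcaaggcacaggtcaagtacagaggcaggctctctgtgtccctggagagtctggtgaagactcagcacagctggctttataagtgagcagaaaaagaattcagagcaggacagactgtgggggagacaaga

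Counted from the annotated start as 0, the first base of the match, in the printed direction, was at -64 in C4bp, -74 in Hc, -206 in C8b and -178 in C7. Of the 8 genes with the core, 5 rose in adult hepatocytes relative to ESCs (C1ra, C4bp, C8a, C8b and Hc) and 3 were not called (C7, Cd55 and Cfp). Among all 31 measured genes 26 rose and 5 were not called, but only 23 of the 31 had a window that could hold a match. Whether the core set the rising genes apart was not tested. A form of the C/EBP site, TTNNGCAA, matched for 4 of 23 genes (C1ra, C1rl, C9 and Fcnb) and in 10.8% of all windows. A STAT site, TTCNNNGAA, matched for 3 of 23 (C1ra, C7 and C8a) and in 8.30% of windows. A site of HNF4, CAAAGTCCA, matched for 0 of 23 and in 0.475% of windows. No match of 1 motif overlapped a match of another in the 23 windows. A match is only a string of letters in this window and was not tested as a binding site.

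The classical pathway genes rose in adult hepatocytes, all 7 of 7, and 0 of 7 were called either way in HLCs relative to ESCs (limma, with 1 higher and 1 lower at an unadjusted p under 0.05). C4b, whose product is cleaved to form part of the C3 convertase, had 4.93, 5.14 and 5.07 in HLCs, 11.03, 11.48 and 11.38 in adult hepatocytes, and 4.87, 4.49, 4.21 and 4.66 in ESCs. The adult arrays lie far above the other 7, and the HLC arrays lie just above the ESC arrays. C4b rose by 6.74 ± 0.18 (log2 difference ± SE) in adult hepatocytes relative to ESCs (adjusted p = 1.63e-11 in limma), whereas HLCs differed from ESCs by 0.49 ± 0.18 (adjusted p = 0.0680). Mouse C4a is a close copy of C4b, and probes may read both; its own cluster was low in every group. C2, the protease that C4 fragments bind, stood at 4.11, 4.54 and 6.02 in HLCs, 8.69, 8.78 and 8.55 in adult hepatocytes, and 4.28, 5.21, 4.11 and 5.06 in ESCs. HLC replicate 3 alone lay above the ESC range for C2, and the group difference was 0.22 ± 0.39 (adjusted p = 0.758). It was 0.61 without HLC replicate 1 and -0.34 without replicate 3, so its sign rests on 1 array. C1rl, a protease resembling C1r, was at 6.02 to 6.20 in HLCs, 10.53 to 10.81 in adult hepatocytes and 6.73 to 6.91 in ESCs, so that no groups overlapped. It was lower in HLCs than in ESCs by a log2 difference short of the threshold (-0.67 ± 0.14, adjusted p = 0.00289 in limma). C1ra, the C1r protease, was at 4.08 to 5.24 in HLCs, 6.01 to 6.74 in adult hepatocytes and 3.99 to 5.55 in ESCs. It rose by 1.51 ± 0.36 in adult hepatocytes relative to ESCs (adjusted p = 0.00432), and its close copy C1rb may share signal with it.

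The chains of C1q, which macrophages make, and ficolin A, a lectin of mouse liver and spleen macrophages, rose in adult hepatocytes by 1.26 to 1.74 on the log2 scale relative to ESCs. C1qa stood at 5.89, 5.38 and 5.29 in HLCs, 7.03, 6.51 and 6.99 in adult hepatocytes, and 5.67, 5.87, 5.32 and 5.49 in ESCs. Its HLC and ESC arrays overlap, and the adult arrays lie above both. C1qb was at 4.44 to 5.27 in HLCs, 6.02 to 7.27 in adult hepatocytes and 4.35 to 5.29 in ESCs. C1qc was at 4.15 to 4.45 in HLCs, 5.54 to 5.82 in adult hepatocytes and 4.05 to 4.51 in ESCs. C1qa, C1qb and C1qc rose in adult hepatocytes relative to ESCs by 1.26 ± 0.21, 1.74 ± 0.31 and 1.35 ± 0.16 (adjusted p = 2.26e-04, 5.05e-04 and 1.46e-05 in limma). Ficolin A, encoded by Fcna, was at 5.38 to 5.58 in HLCs, 6.57 to 6.93 in adult hepatocytes and 5.16 to 5.54 in ESCs, and rose in adult hepatocytes relative to ESCs by 1.36 ± 0.16 (adjusted p = 1.14e-05). None of these 4 was called in HLCs relative to ESCs, with differences of -0.06 to 0.15. Kupffer cell and macrophage markers moved in the same samples: of 10 measured, 7 rose and 1 fell in adult hepatocytes relative to ESCs, with a list mean of 6.28 to 6.40 in adult hepatocytes and 4.69 to 4.94 in ESCs. In HLCs that mean was 4.80 to 4.88, with 1 marker higher and 1 lower than in ESCs and 8 of 10 markers low. The marker that fell in both groups was Cd68, with means of 7.06 in adult hepatocytes, 7.90 in HLCs and 9.53 in ESCs. The Kupffer cell lectin Clec4f was at 7.35, 6.90 and 6.89 in adult hepatocytes, against 4.96, 4.85, 5.02 and 4.86 in ESCs, and Vsig4, a complement receptor of Kupffer cells, rose by 3.66 ± 0.25 (adjusted p = 6.82e-08). The part of macrophage RNA in the C1q and ficolin A differences was not tested.

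**Figure D2:**
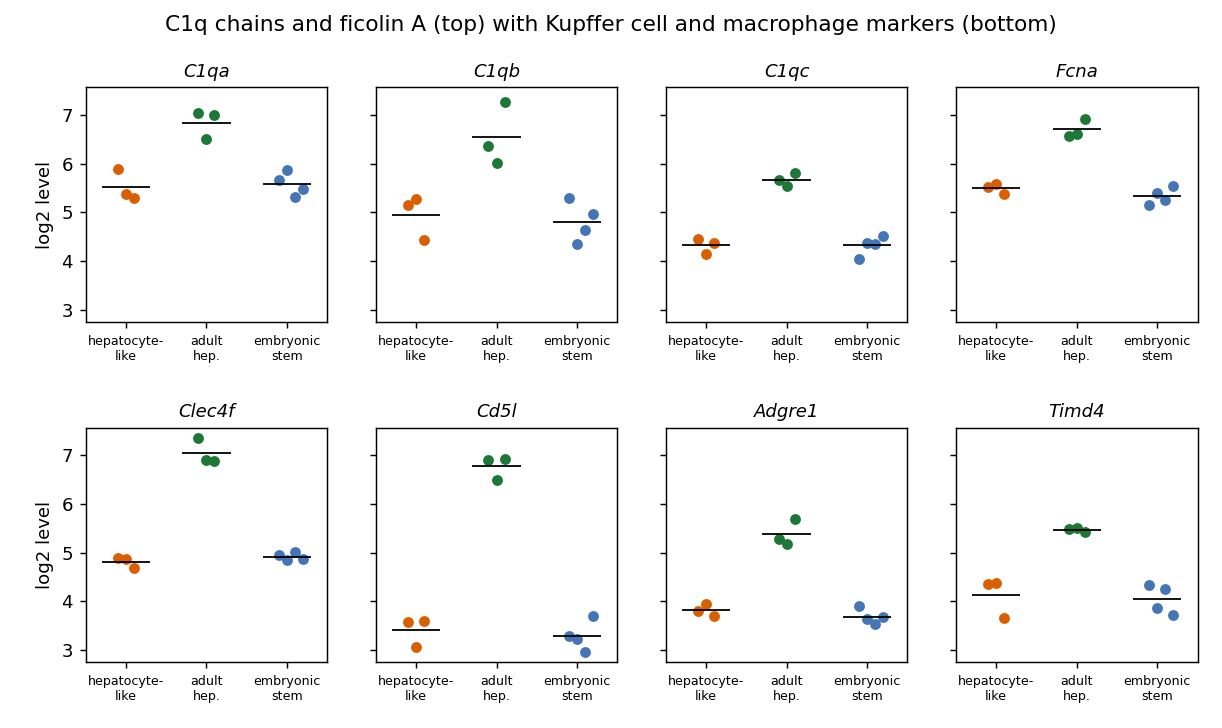
Log2 levels (y axis) of the C1q chains and Fcna (top row) and of the Kupffer cell and macrophage markers Clec4f, Cd5l, Adgre1 and Timd4 (bottom row) are plotted by group, 1 point per array with a line at the group mean. In each panel the adult hepatocyte arrays lie above the other 7, for Clec4f at 6.89 to 7.35 against 4.68 to 4.89 in HLCs. Cd68, of the same marker list but not plotted, went the other way, with a mean of 7.06 in adult hepatocytes against 9.53 in ESCs.

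In the lectin pathway, 4 of 5 genes rose in adult hepatocytes relative to ESCs, and in HLCs 1 of 5, the activating protease, did. Masp1 encodes the MASP-1 protease and, by splicing, MASP-3, which the cluster does not tell apart here. Its levels were 8.88, 9.09 and 7.49 in HLCs, 10.06, 10.35 and 10.16 in adult hepatocytes, and 4.43, 3.72, 4.23 and 3.76 in ESCs. The 3 groups did not overlap, and HLC replicate 3 was lowest of its group. Masp1 rose by 4.45 ± 0.33 in HLCs relative to ESCs, a 21.8-fold difference (adjusted p = 7.19e-07 in limma), and by 4.95 without replicate 3. In adult hepatocytes it rose by 6.16 ± 0.33 relative to ESCs (adjusted p = 6.98e-09), and HLCs were below adult hepatocytes by a log2 difference of -1.71 ± 0.35 (adjusted p = 0.00175). The low ESC level, under 5.5, makes such folds uncertain.

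The mannose-binding lectins, which recognise sugars on microbes, were not called in HLCs relative to ESCs. Mbl1 was at 4.21, 4.74 and 4.78 in HLCs, 10.25, 9.44 and 9.72 in adult hepatocytes, and 4.70, 4.83, 4.56 and 4.66 in ESCs. Mbl2 was at 3.78 to 4.34 in HLCs, 9.54 to 9.76 in adult hepatocytes and 3.24 to 4.24 in ESCs. Both overlapped between HLCs and ESCs, and rose in adult hepatocytes relative to ESCs, by 5.12 ± 0.21 and 5.89 ± 0.22 (adjusted p = 5.34e-10 and 2.80e-10 in limma). Ficolin B, Fcnb, which mouse myeloid cells make, was low in every group, at 3.88 to 4.39 in HLCs, 4.42 to 4.88 in adult hepatocytes and 4.20 to 4.52 in ESCs, and was called in none of the 3 comparisons. Of 10 neutrophil markers, 10 were low in each group.

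For the alternative pathway, factor B and properdin could be measured. Cfb, the protease of the alternative C3 convertase, had 4.82, 4.93 and 5.29 in HLCs, 11.45, 11.62 and 11.54 in adult hepatocytes, and 5.27, 4.99, 5.11 and 4.83 in ESCs. It rose by 6.49 ± 0.17 in adult hepatocytes relative to ESCs (adjusted p = 1.26e-11 in limma), and the HLC difference from ESCs was -0.03 ± 0.17 (95% interval -0.39 to 0.33). Properdin, Cfp, which stabilises that convertase, was at 5.40, 5.62 and 5.73 in HLCs, 6.33, 6.69 and 6.74 in adult hepatocytes, and 5.99, 6.64, 6.50 and 6.02 in ESCs. Its HLC arrays lie below all other arrays. The difference from ESCs was -0.70 ± 0.20 (adjusted p = 0.0174, short of the fold threshold), and that from adult hepatocytes, -1.001 ± 0.21, was called at the edge of it (adjusted p = 0.00222). The call against adult hepatocytes was lost with arrays centred on their median (-0.98), without HLC replicate 1 (-0.91) and without adult replicate 2 (-0.95) or 3 (-0.92).

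The terminal components, which assemble into the membrane pore, rose in adult hepatocytes in 6 of 7 cases, and 0 of 7 were called in HLCs relative to ESCs (limma, with 0 at an unadjusted p under 0.05 either way). Hc, which encodes C5, was at 4.18, 3.93 and 4.04 in HLCs, 10.63, 9.92 and 10.12 in adult hepatocytes, and 4.37, 3.71, 4.22 and 3.87 in ESCs. C9, the unit that polymerises in the pore, was at 3.91, 4.14 and 4.11 in HLCs, 10.95, 9.91 and 10.51 in adult hepatocytes, and 3.90, 4.15, 4.24 and 4.50 in ESCs. For both genes the HLC range falls inside the ESC range, and the adult arrays are more than 5 log2 units higher. The rise in adult hepatocytes relative to ESCs was 6.18 ± 0.21 for Hc and 6.26 ± 0.23 for C9 (adjusted p = 9.45e-11 and 1.93e-10 in limma). The 3 chains of C8 rose together in adult hepatocytes, C8a by 3.90 ± 0.19, C8b by 5.53 ± 0.16 and C8g, a lipocalin, by 6.32 ± 0.15 relative to ESCs. C8a was at 4.73 to 4.997 in HLCs, 8.35 to 9.08 in adult hepatocytes and 4.61 to 4.93 in ESCs. C8b was at 4.24 to 4.48 in HLCs, 9.74 to 10.21 in adult hepatocytes and 4.34 to 4.63 in ESCs. C8g was at 4.53 to 4.81 in HLCs, 11.13 to 11.37 in adult hepatocytes and 4.70 to 4.99 in ESCs. In each chain the HLC and ESC ranges overlap far below the adult arrays. C6, which joins the growing complex after C5b, was at 3.69 to 4.06 in HLCs, 6.10 to 6.62 in adult hepatocytes and 3.86 to 3.98 in ESCs, and rose by 2.38 ± 0.17 in adult hepatocytes relative to ESCs (adjusted p = 1.09e-07). C7, which anchors the complex in the membrane, was at 4.97, 3.93 and 3.41 in HLCs, 3.97, 3.95 and 3.65 in adult hepatocytes, and 4.47, 4.29, 4.33 and 4.39 in ESCs. It was low in every group and differed by -0.52 ± 0.28 between adult hepatocytes and ESCs (adjusted p = 0.176, 95% interval -1.13 to 0.10). In humans much of C7 is made outside the liver.

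Several of these genes are neighbours in the mouse genome. In the RefSeq gene order (GRCm38.p6) no other protein-coding gene lies between C1qa, C1qc and C1qb or between C8a and C8b. The same holds for Cfb and C2, for C1rl and C1ra, and for Cd46 and Cr1l. Between C6 and C7 lies 1 such gene, as between Cd55 and C4bp. C8a with C8b, Cfb with C2, C1rl with C1ra and the C1q chains rose together in adult hepatocytes relative to ESCs and were not called in HLCs. Of all 31 genes, 26 rose in adult hepatocytes and 27 were not called in HLCs relative to ESCs. The joint rise is therefore by itself no result about neighbours. In adult hepatocytes C6, C4bp and Cr1l rose relative to ESCs, while their neighbours C7, Cd55 and Cd46 were not called. The difference between the genes of a pair was not tested.

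The fluid-phase regulators gave the highest median difference of the roles in adult hepatocytes relative to ESCs, 6.70, and all 4 of 4 rose. C4bp, the C4b-binding protein and the member with the largest difference, was at 4.15, 4.05 and 4.45 in HLCs, 11.23, 11.15 and 11.29 in adult hepatocytes, and 3.99, 4.06, 3.99 and 3.70 in ESCs. It rose by 7.29 ± 0.16 in adult hepatocytes relative to ESCs (adjusted p = 6.08e-12 in limma), and HLCs differed from ESCs by 0.28 ± 0.16 (adjusted p = 0.224). Cfi, factor I, the protease that cuts C3b and C4b, was at 3.88 to 4.82 in HLCs, 10.95 to 11.38 in adult hepatocytes and 3.90 to 4.62 in ESCs. It rose by 7.04 ± 0.25 in adult hepatocytes and differed by 0.39 ± 0.25 in HLCs relative to ESCs (adjusted p = 0.316). That HLC difference was 0.22 without HLC replicate 1 and 0.69 without replicate 2 (adjusted p = 0.0481), and was not called in either case.

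Clusterin and C1 inhibitor were the regulators that rose in HLCs. Clu encodes clusterin, a chaperone that also blocks the terminal complex, and had 10.66, 11.54 and 10.19 in HLCs, 11.31, 11.22 and 11.20 in adult hepatocytes, and 6.51, 6.55, 6.42 and 6.58 in ESCs. The HLC arrays span the adult ones, and all 6 lie above the ESCs. Clu rose by 4.28 ± 0.25 in HLCs relative to ESCs (19.4-fold, adjusted p = 1.01e-07 in limma) and by 4.73 ± 0.25 in adult hepatocytes (adjusted p = 6.29e-09). Between HLCs and adult hepatocytes the difference was -0.45 ± 0.27 (adjusted p = 0.227, 95% interval -1.02 to 0.13). It was -0.82 without HLC replicate 2 (adjusted p = 0.00451) and -0.14 without replicate 3, and was not called in either case. Serping1, the C1 inhibitor, which blocks C1r, C1s and the MASPs, had 7.49, 6.41 and 7.92 in HLCs, 12.13, 11.95 and 11.88 in adult hepatocytes, and 4.83, 6.73, 4.58 and 6.38 in ESCs. ESC replicates 2 and 4 were higher than 1 and 3, and HLC replicate 2 lay inside the ESC range. Serping1 rose by 1.64 ± 0.49 in HLCs relative to ESCs (adjusted p = 0.0233 in limma). That call was lost without HLC replicate 1 (1.54, adjusted p = 0.0687) or 3 (1.32, adjusted p = 0.0977), without ESC replicate 1 (adjusted p = 0.0636) or 3 (1.29, adjusted p = 0.0646), and with only these groups in the fit (adjusted p = 0.0525). In adult hepatocytes Serping1 rose by 6.36 ± 0.49 relative to ESCs (adjusted p = 2.83e-07), with a standard error from the 1 estimate of spread that all 3 groups share.

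**Figure D3:**
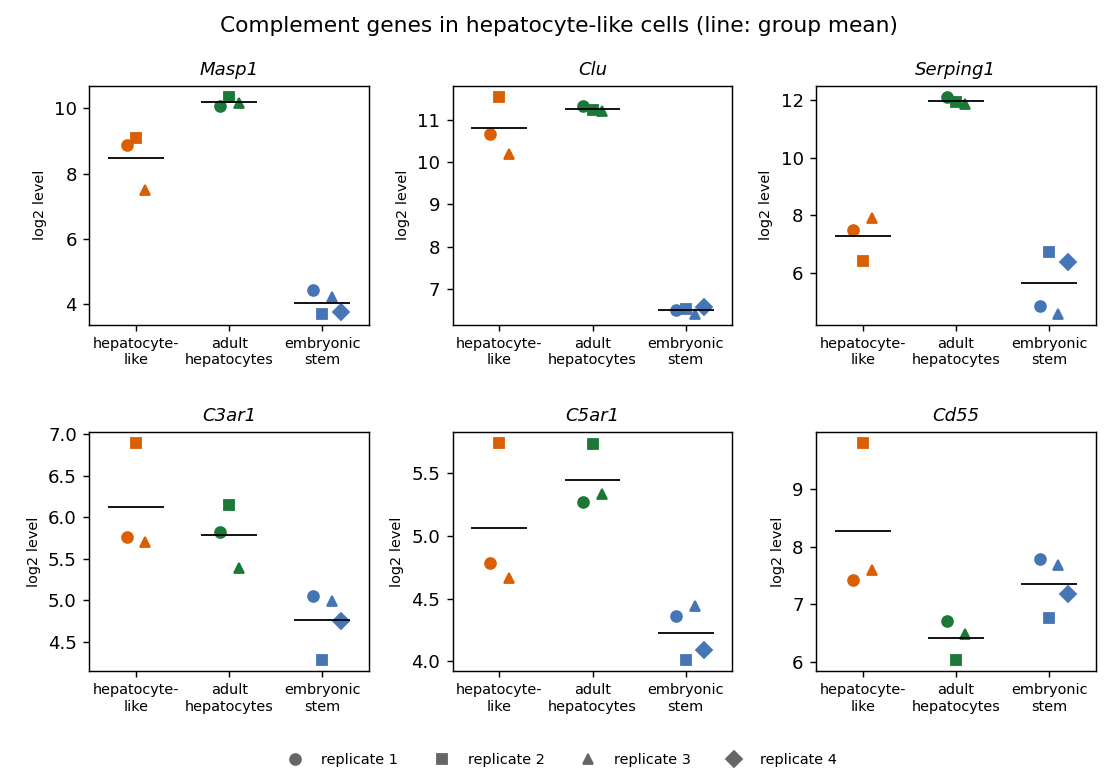
Log2 levels (y axis, a separate scale per panel) of Masp1, Clu, Serping1, C3ar1, C5ar1 and Cd55 are plotted by group, with a marker shape for each replicate number and a line at the group mean. HLC replicate 2 is the highest HLC array for Masp1, Clu, C3ar1, C5ar1 and Cd55 and the lowest for Serping1, at 6.41.

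The membrane regulators shield a cell from its own complement, and 2 of 4 rose in adult hepatocytes relative to ESCs, with a median log2 difference of 1.07. Crry, encoded by Cr1l, is the main rodent inhibitor of the C3 convertases on the cell surface. It was at 7.48, 7.92 and 7.65 in HLCs, 8.66, 8.44 and 8.51 in adult hepatocytes, and 7.46, 7.17, 7.24 and 7.003 in ESCs, and the adult arrays lie above the others. Cr1l rose by 1.31 ± 0.16 in adult hepatocytes relative to ESCs (adjusted p = 2.34e-05 in limma), and HLCs differed from ESCs by 0.46 ± 0.16 (adjusted p = 0.0520). Cd59a, which stops C9 from polymerising, was at 7.87, 8.65 and 7.87 in HLCs, 10.70, 9.84 and 10.25 in adult hepatocytes, and 8.80, 9.11, 8.95 and 9.15 in ESCs. The 3 groups did not overlap, HLCs being lowest. Cd59a rose by 1.25 ± 0.24 in adult hepatocytes relative to ESCs (adjusted p = 7.48e-04 in limma) and was lower in HLCs than in adult hepatocytes (-2.13 ± 0.25, adjusted p = 2.15e-05). Relative to ESCs its difference in HLCs was -0.87 ± 0.24 (adjusted p = 0.0140), and without HLC replicate 2 it was called at -1.13. The close copy Cd59b fell by 1.94 ± 0.16 in HLCs relative to ESCs (adjusted p = 2.16e-06), and probes of the pair may share signal.

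Cd55, the decay-accelerating factor, which breaks up C3 convertases, was the only 1 of the 31 higher in HLCs than in adult hepatocytes under the call rule. It was at 7.42, 9.81 and 7.60 in HLCs, 6.70, 6.03 and 6.49 in adult hepatocytes, and 7.78, 6.75, 7.68 and 7.18 in ESCs. HLC replicate 2 is far above the other 9 arrays, and replicates 1 and 3 lie inside the ESC range. Cd55 was higher in HLCs than in adult hepatocytes by 1.87 ± 0.51 (adjusted p = 0.0110 in limma), and by 1.11 without replicate 2 (adjusted p = 0.0138). A close copy, Cd55b, may share its signal. Relative to ESCs the HLC difference was 0.93 ± 0.48 (adjusted p = 0.183), and 0.17 without replicate 2. Cd46, a cofactor of factor I that in the mouse is made mainly in testis, was low in every group; its differences from ESCs, 0.65 ± 0.19 in HLCs and 0.88 ± 0.19 in adult hepatocytes, were short of the fold threshold (adjusted p = 0.0221 and 0.00233 in limma).

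The receptors for the peptides C3a and C5a had group means of 4.22 (C5ar1, ESCs) to 6.12 (C3ar1, HLCs). C3ar1 was at 5.76, 6.89 and 5.70 in HLCs, 5.83, 6.15 and 5.39 in adult hepatocytes, and 5.05, 4.28, 4.99 and 4.75 in ESCs. All HLC and adult arrays lie above the ESC arrays. C3ar1 rose by 1.35 ± 0.30 in HLCs relative to ESCs (adjusted p = 0.00411 in limma), and the difference was 0.96, short of the threshold, without HLC replicate 2. In adult hepatocytes it rose by 1.02 ± 0.30 (adjusted p = 0.0147), a call lost with arrays centred on their median (0.92), after repeated quantile normalization (0.99), without adult replicate 2 (0.84) and without ESC replicate 2 (0.86). C5ar1 was at 4.79, 5.74 and 4.67 in HLCs, 5.27, 5.73 and 5.33 in adult hepatocytes, and 4.36, 4.01, 4.44 and 4.09 in ESCs, with replicate 2 again highest among the HLC arrays. It rose by 1.22 ± 0.25 in adult hepatocytes relative to ESCs (adjusted p = 0.00125), although its mean was low in every group. It was not called in HLCs relative to ESCs (0.84 ± 0.25, adjusted p = 0.0213); the difference was 0.50 without HLC replicate 2 (adjusted p = 0.0943) and was called without replicate 3 (1.04, adjusted p = 0.0103).

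Split by where the protein acts, 22 of 25 secreted genes and 4 of 6 membrane-bound genes rose in adult hepatocytes relative to ESCs, with median log2 differences of 4.73 and 1.12. In HLCs relative to ESCs, 3 of 25 secreted and 1 of 6 membrane-bound genes rose, with medians of 0.00 and 0.75. Without HLC replicate 2, a setting added after the data were seen, those medians were 0.01 and 0.43. Of all genes 8.61% rose in HLCs relative to ESCs, with a median of -0.01, and 11.0% in adult hepatocytes, with a median of 0.05. The HLC counts of 3 in 25 and 1 in 6 lie near that background. Between HLCs and adult hepatocytes, 22 of 25 secreted genes were lower and 0 higher, with a median of -3.79, and of the membrane-bound genes 1 was lower and 1 higher, with a median of -0.30 (-0.53 without HLC replicate 2). Of all genes 9.12% were lower and 13.9% higher in that comparison, with a median of -0.04. Of the 25 secreted genes, 19 had a low mean in HLCs, 2 in adult hepatocytes and 20 in ESCs. Of the 31 genes together, 27 reached 5.5 in at least 1 group, in many cases through adult hepatocytes alone.

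**Figure D4:**
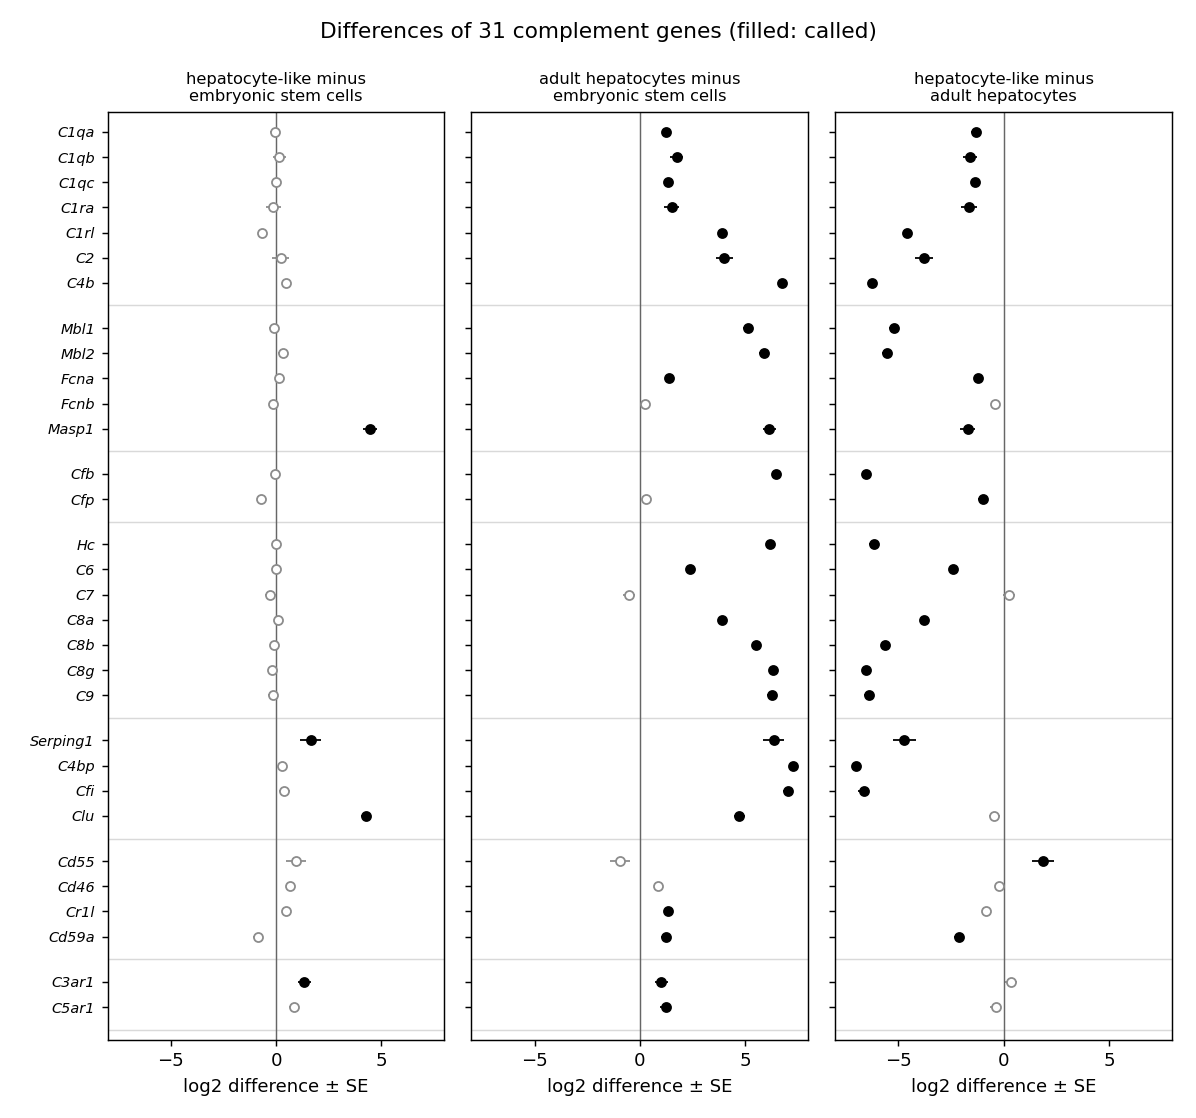
Log2 differences with their standard errors (x axes) are plotted for the 31 genes (y axis, grouped by role) in the 3 comparisons, HLCs minus ESCs, adult hepatocytes minus ESCs and HLCs minus adult hepatocytes. Filled points are called genes: 4 in the left panel, 26 in the middle panel and 24 in the right panel.

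The HLC arrays differed among themselves in a few members. Replicate 3, the HLC array with the highest mean over the hepatocyte markers, exceeded the mean of replicates 1 and 2 by a median of 1.51 over the 10 hepatocyte markers, against a median of 0.06 over the 25 secreted complement genes. The hepatocyte markers Ttr and Apoa1 were nevertheless lowest in replicate 3. It was at least 1 log2 unit above the other arrays for C2 alone (1.69) and at least 1 below them for Masp1 (-1.49), C1ra (-1.11), C7 (-1.04) and Cd55 (-1.02). Replicate 2 exceeded the mean of the others by at least 1 for Cd55 (2.30), C3ar1 (1.16), Clu (1.12) and C5ar1 (1.02) and was lower for Serping1 (-1.30), and its median over the 6 membrane-bound genes was 0.89. Replicate 1 was at least 1 above the mean of the others for C7 (1.30) and at least 1 below it for Cd55 (-1.28) and C2 (-1.17). Over all genes, 2.22%, 1.42% and 2.47% were at least 1 above the mean of the other arrays in replicates 1, 2 and 3, and 1.83%, 2.26% and 1.90% were at least 1 below it. The means of the secreted genes were 5.15 to 5.24 over the HLC arrays, against 8.76 to 8.92 in adult hepatocytes and 4.70 to 4.87 in ESCs.

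A further list of complement genes, not among the 34, held 24 measured of 26. In adult hepatocytes 12 of these 24 rose and 2 fell relative to ESCs, and in HLCs 1 rose and 3 fell. Of all genes 11.0% rose and 15.6% fell in adult hepatocytes, and 8.61% rose and 7.35% fell in HLCs. The HLC counts lie near those shares, so by themselves they are no result about complement. Vitronectin, Vtn, which binds the terminal complex, rose by 7.77 ± 0.21 in adult hepatocytes relative to ESCs, the factor H-related gene Cfhr2 by 7.27 ± 0.20, and the chains of carboxypeptidase N, which inactivates C3a and C5a, by 6.66 ± 0.17 (Cpn2) and 5.18 ± 0.15 (Cpn1). In HLCs Cpn1 fell by 1.08 ± 0.15 relative to ESCs (adjusted p = 1.51e-04 in limma). The scavenger receptor Colec12, a membrane collectin, rose there by 1.62 ± 0.29 (adjusted p = 9.64e-04). The other genes of this list that fell in HLCs were Cd59b, given above, and C1qbp, whose product binds the heads of C1q (-1.16).

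Of 19 listed genes for transcription factors and cytokine receptors that act on complement genes in liver, 15 were measured. Relative to ESCs, 11 of 15 rose and 0 fell in adult hepatocytes, and 4 of 15 rose and 0 fell in HLCs. Of all genes 11.0% rose in adult hepatocytes and 8.61% in HLCs. The hepatocyte factor Cebpa was at 5.22, 5.39 and 5.27 in HLCs, 9.88, 10.41 and 10.60 in adult hepatocytes, and 4.80, 5.73, 5.26 and 5.19 in ESCs. The bile acid receptor Nr1h4 differed by 0.02 ± 0.16 between HLCs and ESCs and rose by 4.98 ± 0.16 in adult hepatocytes, and Hnf4a differed by 0.65 ± 0.22 and rose by 4.44 ± 0.22. The genes that rose in HLCs were the interferon gamma receptor chain Ifngr1 (2.64 ± 0.28), Foxa1 (1.67 ± 0.47), Prox1 (1.52 ± 0.32) and the inflammatory factor Cebpb (1.15 ± 0.27). Foxa1 varied among the HLC arrays, at 6.38, 7.97 and 5.15 in replicates 1, 2 and 3. Its replicate 3 lay just above the ESC range of 4.49 to 5.10. Whether these factors acted on the complement genes was not tested.

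Markers of other cells moved with the groups as well. Of 8 endothelial markers, 6 rose and 1 fell in adult hepatocytes relative to ESCs, with a list mean of 5.45 to 5.92 in HLCs, 7.66 to 7.82 in adult hepatocytes and 5.42 to 5.67 in ESCs. In HLCs 2 of these 8 rose and 2 fell relative to ESCs, so the list mean hides changes in both directions. Kdr and Cdh5 had means of 7.51 and 7.06 in HLCs, against 4.89 and 5.34 in ESCs. Pecam1 and Tek had means of 6.44 and 4.29 in HLCs, against 9.52 and 5.90 in ESCs. Of 10 stellate cell and fibroblast markers, 6 rose and 0 fell in HLCs relative to ESCs, with list means of 8.74, 7.88 and 6.80 in HLC replicates 1, 2 and 3 and 5.12 to 5.38 in ESCs. In adult hepatocytes 3 of these 10 rose and 1 fell relative to ESCs, with a list mean of 6.40 to 6.45. Directly compared, 5 were higher and 3 lower in HLCs than in adult hepatocytes. Acta2, among those higher in HLCs, had a mean of 12.18 in HLCs, against 6.42 in adult hepatocytes. Lrat, Reln and Dcn, which were lower in HLCs, had means of 7.92, 7.22 and 9.03 in adult hepatocytes, against 4.36, 4.88 and 7.13 in HLCs. Of 9 extraembryonic endoderm markers, 6 rose and 0 fell in HLCs relative to ESCs, and 4 rose and 0 fell in adult hepatocytes. The list means were 7.60 to 7.85 in HLCs, 6.09 to 6.26 in adult hepatocytes and 5.40 to 5.54 in ESCs. Clusterin, C1 inhibitor and Masp1 are made by more than 1 cell type, and the part of these cells in their rise was not tested.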

How the data were processed

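Total RNA of 10 mouse samples was labelled with biotin by a standard Affymetrix protocol, per the labels. The deposited values, 41345 transcript clusters on 10 arrays, are log2 levels made by the authors, as read from their range. The submitters' processing notes name Transcriptome Analysis Console, R 3.3.1, RMA and oligo 1.38.0, without their roles; the build is not given in the sources used here. RMA, where used, compresses differences of low transcripts, and without scanner files no detection call was possible.

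Symbols came from the platform annotation, in which 23521 clusters had 1 symbol, 1814 more than 1 and 16010 no symbol. Per gene the cluster with the highest mean over the 10 arrays was kept; each of the 31 complement genes has 1. All 22180 genes were tested in 1 fit with limma 3.58.1 (R 4.3.3, lmFit and eBayes, 3 group means, 7 residual and 5.34 prior degrees of freedom, 2-sided) and adjusted by Benjamini-Hochberg. All measured members are named, and of other lists up to 6 called genes by size and up to 4 markers. The 4 macrophage markers plotted with the C1q chains are not the highest of their list by level. Cd68 (mean of 9.53 in ESCs), Mrc1 (7.98 in adult hepatocytes) and Csf1r (7.24 in adult hepatocytes) were higher than Clec4f (7.05 in adult hepatocytes). Cd59b, C4a, Colec12, C1qbp, Ifngr1 and Cebpb were named after their values were seen. The same holds for the hepatocyte markers Alb, Ttr and Apoa1, the endothelial markers Kdr, Cdh5, Pecam1 and Tek, and Acta2. The fit was tested on simulated data. Members and lists were chosen with earlier results of these data known. Promoters are RefSeq's, GRCm38.p6. Figures used Python 3.11.15 and matplotlib 3.10.9. Alternatives covered normalization, dim genes, gene summary, variance, samples in the fit, replicate block, thresholds and each array left out.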

Additional observations from a re-analysis of the deposited data

Results flagged for a closer look

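In the group of 4 ESC arrays, the gap between the most extreme array and its nearest neighbour, as a share of the group's range, passed Dixon's 95% critical value for 2 of the 31 genes, and chance flags about 1 in 20. It was 0.939 for C1rl, where replicate 4 read 6.91 and the others 6.73, 6.75 and 6.74, a spread that is small beside the differences between groups. It was 0.897 for Cfi, where replicate 1 read 4.62 and the others 3.90, 3.90 and 3.97, all low. Groups of 3 arrays were not examined in this way.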

How the results depend on the processing

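Over 17 alternatives to the processing, 1569 values of single complement genes were recomputed. Of these, 1553 kept their side of the threshold, 14 lost a call (Serping1, C3ar1 and Cfp, given with those genes above), 2 gained one (Cd59a and C5ar1), and 0 called values changed direction. Leaving out 1 array gave 3 to 4 complement genes higher and 0 to 1 lower in HLCs than in ESCs, 25 to 26 higher in adult hepatocytes than in ESCs, and 22 to 23 lower in HLCs than in adult hepatocytes. With the adjusted p alone and no minimum difference, 6 complement genes were higher and 3 lower in HLCs than in ESCs, and all called genes numbered 6390 there, 9205 for adult hepatocytes against ESCs and 8003 for HLCs against adult hepatocytes. With a minimum log2 difference of 2, 2 complement genes were higher in HLCs than in ESCs, 17 in adult hepatocytes than in ESCs and 0 in HLCs than in adult hepatocytes, where 16 were lower, and all called genes numbered 1030, 2501 and 2107. These changes follow from the thresholds themselves. The main counts of all called genes were 3540, 5893 and 5106. Same-numbered arrays of different groups did not deviate together (r of -0.19 to 0.14 over all genes), so the replicate number was not taken as a pairing. A fit with it as a replicate block left out ESC replicate 4, which has no same-numbered array in the other groups. In that fit 3518, 5926 and 5103 genes were called, and 4, 26 and 24 complement genes. Those complement counts were the same as in the main fit, which held all arrays and no block. Centring on the median moved the median difference of all genes by -0.08, -0.10 and 0.02. Levels under 5.5 limit what can be seen: a low gene gives no bound on its transcript.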
